A study of Mus musculus with 12 samples.

Results

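De novo lipogenesis is the route by which the liver makes fatty acids from surplus carbohydrate. Citrate is cleaved to acetyl-CoA in the cytosol, acetyl-CoA is carboxylated to malonyl-CoA, fatty acid synthase builds palmitate from both at the cost of NADPH, and the product is then elongated and desaturated before it is stored as triglyceride. The pathway is known for its control at the level of transcription, chiefly by SREBP-1c, which insulin and the liver X receptor induce, and by ChREBP, which responds to glucose metabolites. The 10 genes described here were taken by name from the 57180 genes of the deposited tables: the transcription factor genes Srebf1 and Mlxipl, the lipogenic protein gene Thrsp, and the enzyme genes Acly, Acaca, Fasn, Scd1, Elovl6, Me1 and Aacs. Each matched 1 row, and all 10 were among the 19350 genes with enough reads to be tested.

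RNA was measured in 12 livers from KO and Het mice, each genotype being represented by 3 mice of either sex, and individual livers are named by genotype, sex (F or M) and mouse number. Every mouse lacked Csa (listed as Ercc8) and had received, as a newborn, AAV9-CSA by intracerebroventricular injection, a vector with a human CSA cDNA under the ubiquitous CBA promoter. The KO mice were CX mice, a model of Cockayne syndrome, taken at the humane endpoint after they had lost weight, and the Het mice were littermates of the same age, kept on the same chow. The series' design text and the study's sequencing methods write KO as Csa-/-;Xpa+/+ and Het as Csa-/-;Xpa+/-. The study's results give CX mice as lacking both genes, so the groups were taken by the names KO and Het. Feeding state and time of day at collection are not given in the sources used here, and because the KO mice were also the sick mice, genotype and late disease cannot be told apart.

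Xpa was measured first as a check of the labels. It read 3.10 to 6.34 CPM (normalised read counts, scaled to library size by the TMM method) in the 6 Het livers and 0.992 to 1.83 CPM in the 6 KO livers, a log2 fold change of -1.83 (standard error, SE, 0.163). Xpa RNA was thus lower in the livers named KO, the direction of a lost Xpa rather than of the written Xpa+/+. Reads assigned to Ercc8 stood at 5.10 to 8.68 CPM in Het and 14.8 to 33.997 CPM in KO livers (log2 fold change 1.62, SE 0.174). Whether these came from the deleted locus or from the vector was not tested. Totals were 30044812 to 43634073 counts a liver. Pairs of livers from the same group differed far beyond counting noise, most in the 2 pairs with KO_F_108 (chi-square per degree of freedom 207 and 226, against 86.8 to 166 in the other 10 pairs), so every liver was kept as a separate sample.

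Lipogenic transcripts were lower in KO livers. Of the 10 genes, 7 fell at an adjusted p under 0.05 over both sexes, namely Srebf1, Mlxipl, Acaca, Fasn, Scd1, Me1 and Aacs, and none rose. For comparison, 10.2% of all genes tested were called lower and 12.2% higher. The 10 genes were chosen with earlier results of these data known, so the comparison is a description only. Acly, Elovl6 and Thrsp were not called by edgeR, with adjusted p of 0.0974, 0.102 and 0.266, while DESeq2 called Elovl6 as well (adjusted p = 0.0278). The 10 log2 fold changes ran from -1.92 (Aacs) to -0.58 (Acaca) with a median of -1.08, while the median over all genes tested was 0.0175. At an unadjusted p under 0.05, 9 genes were lower and 0 higher, where 16.8% of all genes were lower. The KO mean lay below the Het mean for all 10 genes in females and again in males. For 3 genes (Acaca, Me1 and Aacs) every KO liver lay below every Het liver, a pattern that 4.64% of all genes tested showed in CPM. In TPM the genotypes overlapped for Acaca, KO_M_122 at 24.5 TPM lying above Het_M_119 at 23.9 and Het_M_125 at 23.4 TPM.

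**Figure D1:**
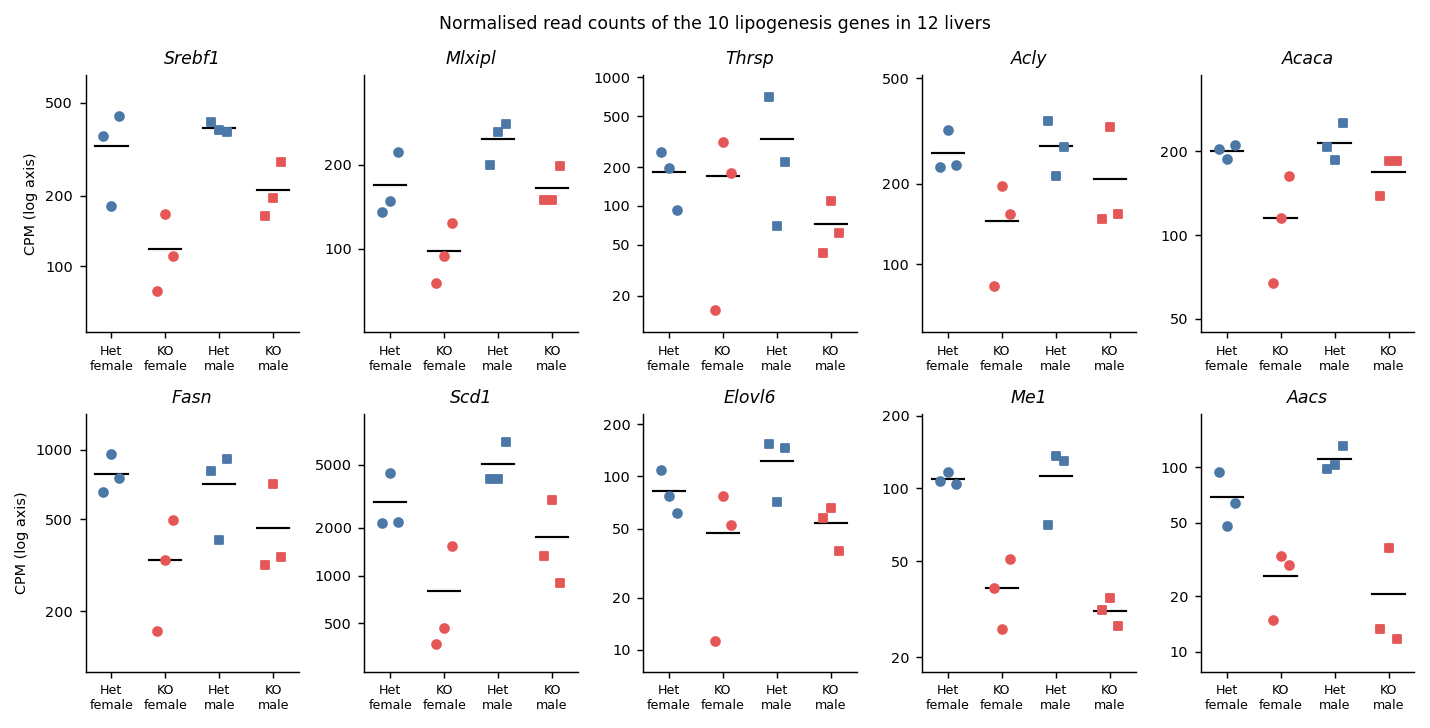
Normalised read counts (CPM, log axis) of the 10 genes in each of the 12 livers. Circles are females and squares males, blue points are Het and red points KO, and black bars are means of 3 livers. Me1 and Aacs show a gap between the genotypes in both sexes, whereas Thrsp spreads over more than the difference between genotypes.

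The regulators came first. Srebf1 encodes SREBP-1, the membrane-bound transcription factor that drives lipogenic enzyme genes. Its normalised count in Het females was 359, 181 and 440.3 CPM, and in Het males 414, 383 and 374 CPM. In KO females it was 78.2, 167 and 111.1 CPM, and in KO males 163, 196 and 279 CPM. Within each sex every KO liver lay below every Het liver, but the lowest Het liver, Het_F_115, lay below 2 of the KO males. Srebf1 was 2.25-fold lower in KO livers (log2 fold change -1.17, SE 0.237, adjusted p = 0.00611). The call held within females (log2 -1.46, adjusted p = 0.0227) but not within males (log2 -0.88, adjusted p = 0.139) in the fit of all 12 livers. In females it was lost without Het_F_111, Het_F_126 or KO_F_108. With each sex fitted by itself the calls were the other way round, Srebf1 being called in males (adjusted p = 0.0282) and not in females (adjusted p = 0.0879).

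Mlxipl encodes ChREBP, the carbohydrate-responsive factor that acts as a dimer with the product of Mlx. It stood at 135, 149 and 223 CPM in Het females and 199.6, 263 and 281 CPM in Het males. KO females read 75.2, 94.4 and 124 CPM and KO males 149.7, 149 and 198 CPM. In CPM the genotypes did not overlap within either sex, while KO males overlapped Het females. In TPM the males overlapped, KO_M_136 at 63.3 TPM lying above Het_M_119 at 49.1 TPM. The decrease was 1.61-fold (log2 -0.68, SE 0.165, adjusted p = 0.0127), and within females the adjusted p was 0.0500344, just outside the threshold.

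The promoter sequences of these genes are shown because the genes fell together. Of the 10 genes, 9 had an entry in the RefSeq promoter table (GRCm38.p6), with 13 windows of 250 bases before to 50 after a start site, and each window matched GRCm39 at 1 place. The motifs were chosen with the sequences known, and searched on both strands. The E-box CACGTG was in 7.15% of 32851 windows and in 1 of the 13, that of Mlxipl. The antioxidant response element core TGACNNNGC was in 12.4% of windows and in 2 of the 13, those of Aacs and Me1, and CCAAT was in 37.4% and in 7. The GC box GGGCGG was in 35.7% of windows and in 5 of the 13. The sterol element core CACCCCAC was in 2.87% of windows and in 0 of the 13. A match is a description of letters only. In the sequences below, read on the strand of the gene, capitals mark CCAAT (either strand) in Srebf1 and Fasn, the E-box and CCAAT in Mlxipl, and the antioxidant element in Me1.
Srebf1: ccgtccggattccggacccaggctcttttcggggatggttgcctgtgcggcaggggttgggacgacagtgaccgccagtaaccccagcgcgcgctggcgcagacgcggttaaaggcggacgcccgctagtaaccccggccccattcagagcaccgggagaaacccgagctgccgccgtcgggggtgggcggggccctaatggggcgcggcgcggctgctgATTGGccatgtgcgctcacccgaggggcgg
Fasn: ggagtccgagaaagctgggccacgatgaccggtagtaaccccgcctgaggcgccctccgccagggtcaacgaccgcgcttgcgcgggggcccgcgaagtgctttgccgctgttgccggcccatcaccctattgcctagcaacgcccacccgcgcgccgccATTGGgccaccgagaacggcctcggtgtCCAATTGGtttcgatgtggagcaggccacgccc
Mlxipl: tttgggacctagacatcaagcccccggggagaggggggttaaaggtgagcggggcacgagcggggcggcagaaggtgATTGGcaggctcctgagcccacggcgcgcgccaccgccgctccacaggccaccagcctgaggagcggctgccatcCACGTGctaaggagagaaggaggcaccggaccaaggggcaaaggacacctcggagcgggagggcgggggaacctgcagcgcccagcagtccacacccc
Me1: ggccgatgccgccgTGACTCAGCgcttctc
The Srebf1 stretch is chr11:60101298-60101547 (GRCm39, minus strand), just upstream of an internal start site. It lies in introns of longer Srebf1 transcripts, touches no Srebf1 exon, and overlaps by 79 bases an exon of the noncoding gene Gm73277 on the other strand. Its CCAAT match spans bases -30 to -26. The Fasn stretch, chr11:120715403-120715623 on the minus strand, ends before the first exon of most Fasn transcripts, with CCAAT matches at -90 to -86, -62 to -58 and -59 to -55. The Mlxipl stretch, chr5:135118494-135118743 on the plus strand, ends at the base before the gene, and its E-box spans -98 to -93. The 30 bases of Me1, chr9:86577958-86577987 on the minus strand, lie in the first exon of annotated Me1 transcripts, upstream of the coding sequence, with the element at -6 to 3 around the RefSeq start.

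The factors that act with SREBP-1 and ChREBP were looked at next. Nr1h3, which encodes liver X receptor alpha, read 67.2 to 74.6 CPM in Het livers and 46.1 to 58.5 CPM in KO livers without overlap, and fell in both sexes together (log2 -0.49, SE 0.0817, adjusted p = 0.00199). Mlx, the dimer partner of ChREBP, fell from 19.9 ± 1.42 to 14.8 ± 1.17 CPM (SD, n = 6; log2 -0.42, adjusted p = 0.00582). Mid1ip1, a paralog of Thrsp whose product promotes polymerisation of acetyl-CoA carboxylase, was lower at log2 -1.68 (SE 0.369, adjusted p = 0.0104). Srebf2, which encodes the SREBP paralog that mainly drives cholesterol synthesis, rose over both sexes (log2 0.50, SE 0.118, adjusted p = 0.0118), with a log2 fold change of 1.01 in males (adjusted p = 0.00512) and -0.02 in females (adjusted p = 0.955). The difference between the sexes in Srebf2 was not called (adjusted p = 0.223). Insig1 and Insig2, which encode the proteins that hold SREBPs in the endoplasmic reticulum, were not called (log2 -0.13, adjusted p = 0.749, and 0.56, adjusted p = 0.342). The whole list of 23 other regulators had 2 genes higher and 6 lower, with a median of -0.13.

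Thrsp, also called Spot 14, encodes a small nuclear protein induced by thyroid hormone and carbohydrate feeding. It read 263, 197 and 92.6 CPM in Het females and 701, 70.03 and 220.0 CPM in Het males. KO females read 15.6, 313 and 179.7 CPM, and KO males 43.2, 109.9 and 62.0 CPM. The groups overlapped in both sexes, and KO_F_112 lay above every Het female. The log2 fold change was -1.16 with an SE of 0.702 and a 95% confidence interval of -2.73 to 0.41. In females it was -0.12 (95% confidence interval -2.31 to 2.07) and in males -2.20 (-4.49 to 0.08), so a difference of either sign could not be resolved in females with these livers.

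The enzymes that make palmitate were each lower on average. Acly, the ATP citrate lyase that supplies cytosolic acetyl-CoA, stood at 231, 319 and 236 CPM in Het females and 343, 214 and 274 CPM in Het males. It read 83.0, 197 and 155 CPM in KO females and 147, 327 and 154 CPM in KO males. Females did not overlap, while KO_M_122 lay within the range of the Het males. The log2 fold change of -0.63 (SE 0.253) did not pass the threshold (adjusted p = 0.0974). Without KO_M_122 it was -0.87 and passed (adjusted p = 0.0191).

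Acaca encodes acetyl-CoA carboxylase 1, which makes malonyl-CoA for synthesis. Its Het values lay close together, at 205, 188 and 211 CPM in females and 206, 186 and 252 CPM in males. KO females read 67.0, 114.8 and 162 CPM, and KO males 138, 184 and 185 CPM. In CPM all 6 KO livers lay below all 6 Het livers, although the gap between the nearest of them was 185 against 186 CPM. The decrease was 1.49-fold (log2 -0.58, SE 0.181, adjusted p = 0.0386). The call was lost on leaving out any one of 8 livers and without a filter on low counts, with adjusted p up to 0.0842. The paralog Acacb, whose product makes malonyl-CoA at mitochondria, was not called (log2 -0.31, adjusted p = 0.490).

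Fasn encodes fatty acid synthase itself. Het females read 655, 953 and 755 CPM and Het males 808, 404 and 913 CPM. KO females read 164, 334 and 497 CPM and KO males 316, 709.9 and 344 CPM. Females did not overlap, whereas Het_M_125 lay below KO_M_122. Fasn was 1.92-fold lower (log2 -0.94, SE 0.309), at the edge of the threshold (adjusted p = 0.0497). It stayed called in 13 of 26 alternative analyses, and the adjusted p ranged from 0.00980 to 0.126 over them. It was not called in females (log2 -1.25, adjusted p = 0.0895) or males separately (log2 -0.63, adjusted p = 0.415).

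Scd1 encodes stearoyl-CoA desaturase 1, which makes oleate and palmitoleate. It was the most abundant of the 10 in every group by mean TPM, the share of a library's transcripts after allowing for transcript length. In KO females its 128 ± 105 TPM and the 103 ± 86.8 TPM of Thrsp lay within their spread (SD, n = 3). In KO_F_112 Thrsp was higher, at 183 against 68.4 TPM. Het females read 2128, 4451 and 2189 CPM and Het males 4035, 4071 and 6951 CPM. KO females read 373, 470.5 and 1545 CPM and KO males 1327, 2986 and 905 CPM. Neither sex overlapped, and 5 of the 6 KO livers lay below every Het liver. Scd1 was 3.26-fold lower (log2 -1.70, SE 0.426, adjusted p = 0.0176), and in edgeR the sexes did not reach the threshold separately (females log2 -1.88, adjusted p = 0.0706, and males -1.53, adjusted p = 0.151). DESeq2 called Scd1 in females (adjusted p = 0.00634) and in males (adjusted p = 0.0397). The call over both sexes was lost without a filter on low counts (adjusted p = 0.0556).

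The other Scd genes did not follow one direction. Scd2, the isoform typical of brain and of immature liver, rose from 8.21 ± 2.12 to 17.0 ± 9.10 CPM (SD, n = 6; log2 1.04, SE 0.282, adjusted p = 0.0235), and its highest value was 35.3 CPM in KO_M_122. Scd3 was near the limit of detection, at 0.254 to 1.18 CPM in Het and 0 to 0.612 CPM in KO livers, and was not called (adjusted p = 0.0607). Scd4 did not pass the filter on low counts. These genes are close in sequence, so reads shared between them were divided by estimation.

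Elovl6 encodes the elongase that extends palmitate to stearate. It read 108.2, 77.5 and 61.1 CPM in Het females and 153, 70.8 and 145 CPM in Het males. KO females read 11.2, 77.4 and 52.4 CPM, and KO males 57.9, 65.3 and 37.4 CPM. In CPM the males did not overlap, the females did, and KO_F_108 lay far below the other KO livers. In TPM the males overlapped too, KO_M_122 at 9.77 TPM lying above Het_M_125 at 9.72 TPM. The fitted 2.003-fold decrease (log2 -1.002, SE 0.403) was not called by edgeR (adjusted p = 0.102) but was called by DESeq2 (adjusted p = 0.0278).

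Me1 encodes cytosolic malic enzyme, a source of NADPH for fatty acid synthase, and had the smallest adjusted p of the 10. Het females read 107, 117 and 104 CPM and Het males 70.3, 135.5 and 130.2 CPM. KO females read 38.8, 26.2 and 51.1 CPM and KO males 31.3, 35.1 and 27.1 CPM. The genotypes were separated by a gap between 51.1 and 70.3 CPM. Me1 was 3.18-fold lower (log2 -1.67, SE 0.187, adjusted p = 2.19e-04) and was called in females (log2 -1.50, adjusted p = 0.00750) and in males (log2 -1.84, adjusted p = 0.00244). All 3 calls held in each of 26 alternatives.

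Aacs encodes acetoacetyl-CoA synthetase, which returns ketone bodies to lipid synthesis in the cytosol. Het females read 93.8, 47.8 and 64.3 CPM and Het males 98.2, 103 and 129.7 CPM. KO females read 14.8, 32.9 and 29.4 CPM and KO males 13.3, 36.6 and 11.7 CPM. No KO liver reached the lowest Het liver, and 2 of the 3 KO males were the lowest of all. The decrease of 3.78-fold (log2 -1.92, SE 0.323, adjusted p = 0.00290) was the largest fitted value of the 10. It was called in males (log2 -2.42, adjusted p = 0.0139; lost without KO_M_118, adjusted p = 0.0533) but not in females (log2 -1.42, adjusted p = 0.0677).

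**Figure D2:**
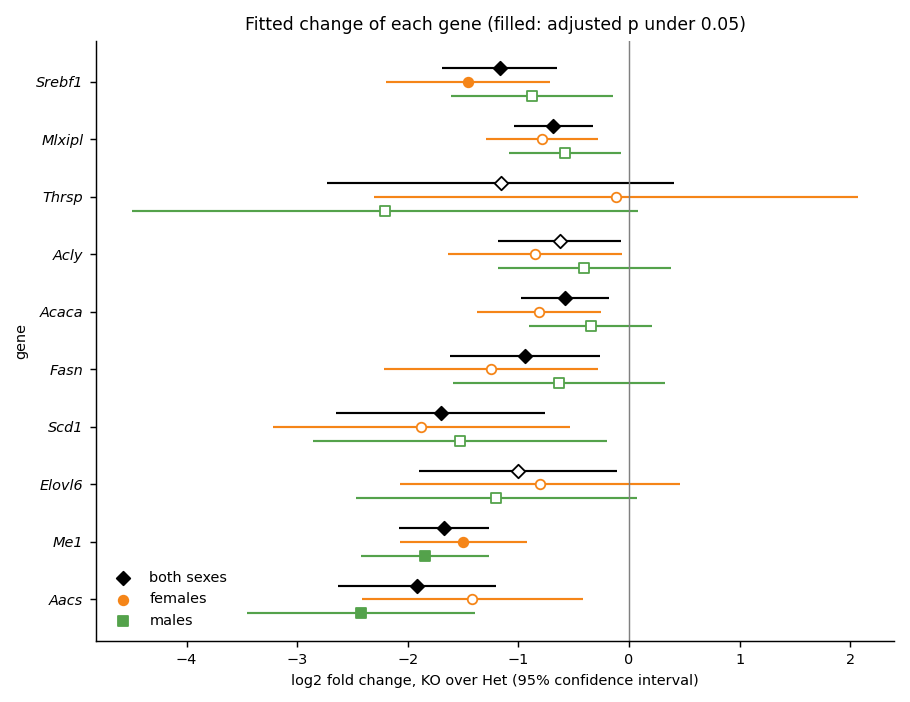
Fitted log2 fold change of KO over Het for each gene, with 95% confidence intervals, over both sexes (black diamonds), in females (orange circles) and in males (green squares). Filled symbols have an adjusted p under 0.05. All 30 estimates lie below 0, and the interval of Thrsp is the widest in each set.

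Within females, edgeR called 2 genes, Srebf1 and Me1, where 5.1% of all genes were called lower. Within males it called 2, Me1 and Aacs, where 2.98% were called lower. DESeq2 called 7 in females and 3 in males, but the share of all genes that DESeq2 called was not taken, so these counts have no such comparison. In CPM the KO females lay below all Het females for 8 genes and the KO males below all Het males for 7. These patterns were shown by 14.7% and 15.4% of all genes tested. In TPM the males overlapped for Mlxipl, Acaca and Elovl6. Whether the KO effect differed between the sexes was tested by the interaction, for which edgeR called 0 of the 10 genes, DESeq2 called 0 and none had an unadjusted p under 0.05. Over all genes the interaction was called for 0.0465%, and 9.28% had an unadjusted p under 0.05. Its intervals were wide, for instance -0.44 to 1.61 for Srebf1 and -2.39 to 0.38 for Aacs on the log2 scale, so differences of more than 2-fold between the sexes lay within them.

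Males and females were also compared over both genotypes. None of the 10 genes was called by edgeR, against 1.02% of all genes, while 3 (Srebf1, Mlxipl and Scd1) were higher in males at an unadjusted p under 0.05, as were 6.73% of all genes. The nearest was Mlxipl, 1.58-fold higher in males (log2 0.66, SE 0.165, adjusted p = 0.0940), which DESeq2 called.

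The decrease was uneven between livers. Each liver was set against the Het mean of its own sex. In KO_F_108, 9 of the 10 genes were the lowest of the KO females, and the median over the 10 was 22.7% of the Het mean. KO_F_112 stood at a median of 53.6% but reached 170% for Thrsp and only 16.1% for Scd1. KO_F_123 had a median of 61.1%. Among the males, KO_M_118 had a median of 43.2% and KO_M_136 of 39.5%. KO_M_122 had a median of 56.3%, was the highest of the KO males in 7 genes, and lay above the Het mean in 2 (Acly at 117.9% and Fasn). Het livers varied as well, from a median of 83.9% in Het_M_125, which had 21.2% of the male Het mean for Thrsp, to 117% in Het_M_137. Without KO_F_108, 6 of the 10 genes remained called over both sexes, Fasn being lost.

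**Figure D3:**
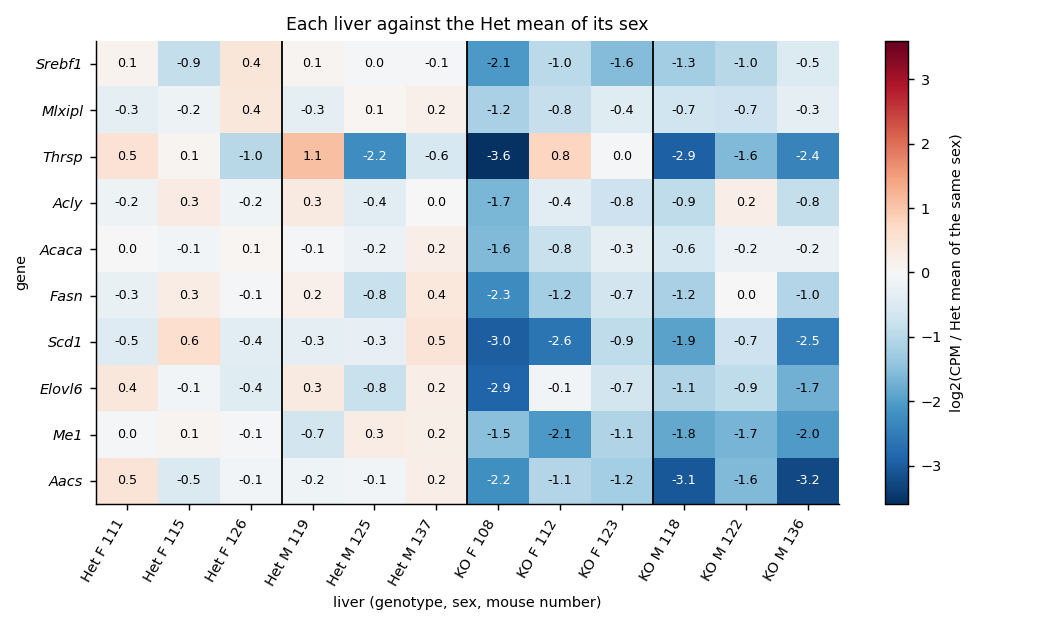
Log2 ratio of the CPM in each liver to the Het mean of the same sex, for the 10 genes (rows) and 12 livers (columns, parted by group). Blue is below and red above the Het mean. KO_F_108 is the bluest of the KO females, and Thrsp in KO_F_112 and Acly in KO_M_122 are red in otherwise blue columns.

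Levels were compared between genes as TPM. In Het livers the means ran from 626 ± 274 TPM for Scd1, through 156 ± 125.6 for Thrsp, 103 ± 28.6 for Srebf1, 81.3 ± 21.0 for Fasn, 63.3 ± 19.7 for Mlxipl and 57.7 ± 12.0 for Acly, to 33.1 ± 7.75 for Me1, 29.0 ± 4.28 for Acaca, 23.3 ± 6.75 for Aacs and 15.7 ± 5.53 for Elovl6 (SD, n = 6). Neighbours in this order below Scd1 lay within the larger SD of the pair, except Acly and Me1 and, narrowly, Aacs and Elovl6. In KO livers Scd1 was again highest (201 ± 151 TPM), and Aacs had become the lowest (6.29 ± 2.64 TPM), next to Elovl6 (7.70 ± 3.06 TPM). Summed over the 10 genes, the level in females was 1028 ± 209 TPM for Het and 397 ± 196 TPM for KO, and in males 1348 ± 360 TPM for Het and 564 ± 235 TPM for KO (SD, n = 3). The summed level of the highest KO liver, KO_M_122 at 835 TPM, was below that of the lowest Het liver, Het_F_126 at 889 TPM. Scd1 held 46.9% and 55.6% of the sum in Het females and males, and 31.3% and 46.4% in KO females and males. In all livers 3 small noncoding RNAs (Rn7s1, Rn7s2 and Rn7sk) took 50.04% to 59.9% of all TPM, which lowers every other TPM value.

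Ratios between 2 genes of the same liver do not depend on library scaling. The log2 ratio was taken for 8 pairs, which were chosen after the values had been seen. The differences (KO minus Het mean, 6 livers each) are therefore given as descriptions, without the p-values of a permutation test run on them. Srebf1 relative to its paralog Srebf2 differed by -1.66, with 4 of the 6 KO livers below every Het liver. Scd1 relative to Scd2 differed by -2.85, and Me1 by -2.05 relative to the mitochondrial malic enzyme gene Me2 and by -2.46 relative to G6pdx, the entry to the pentose phosphate route to NADPH. In each of these last 3 ratios all 6 KO livers lay below all Het livers. The differences were -0.26 for Mlxipl against Mlx and -0.38 for Acaca against Acacb. A pair of ratios went opposite ways in the sexes. Thrsp against Mid1ip1 differed by 1.14 in females and -0.44 in males (0.35 over both), and Elovl6 against Elovl5 by 0.59 in females and -0.93 in males (-0.17 over both). Whether the sexes differed in these ratios was not tested.

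**Figure D4:**
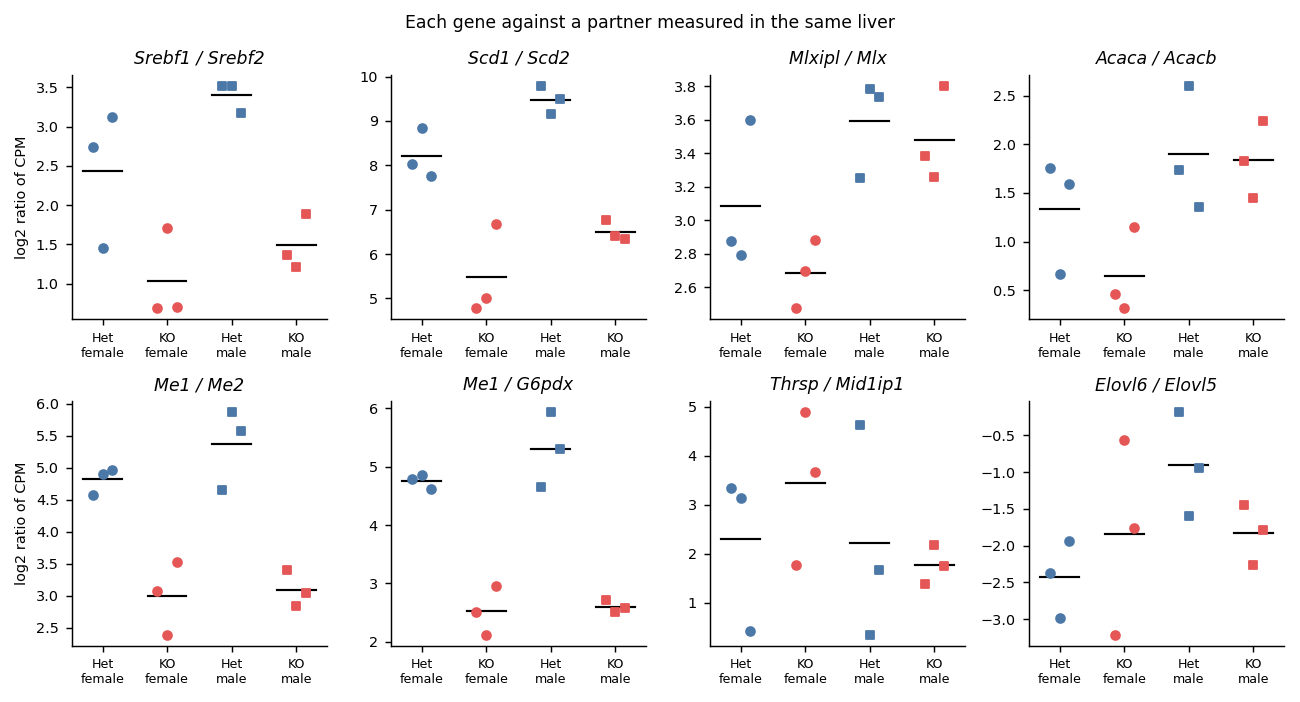
Log2 ratio of CPM between a lipogenic gene and a partner gene in the same liver, for 8 pairs. Circles are females and squares males, blue points are Het and red points KO, and bars are means of 3 livers. Scd1 to Scd2, Me1 to Me2 and Me1 to G6pdx separate the genotypes without overlap, while Thrsp to Mid1ip1 and Elovl6 to Elovl5 overlap.

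The wider pathway was described by lists of genes that exclude the 10, and counts are given beside the 10.2% of all genes called lower and 12.2% higher. These lists too were chosen with earlier results of these data known. Of 8 genes that supply acetyl-CoA and NADPH, 1 rose and 3 fell (median log2 -0.31). G6pdx rose (log2 0.78, SE 0.132), while Slc25a1, the mitochondrial citrate carrier, fell (-0.51, SE 0.141), as did the malate dehydrogenase gene Mdh1 (-0.37). Of 14 genes of elongation, desaturation and activation, 1 (Scd2) rose and 7 fell (median log2 -0.57). The elongase gene Elovl3 read 1.30 to 6.79 CPM in Het females and 42.5 to 71.8 CPM in Het males. It read 0.093 to 0.456 CPM in KO females and 0.815 to 1.40 CPM in KO males. Across the sexes the genotypes overlapped, KO_M_122 at 1.40 CPM lying above Het_F_126 at 1.30 CPM. The fitted log2 fold change of Elovl3, -4.61 (SE 0.464), rests in KO females on a few counts and so depends on the prior count. Acsl1, which activates long-chain fatty acids, fell at log2 -1.55 (SE 0.204), and Hsd17b12, the ketoacyl reductase of elongation, at -0.93 (SE 0.138).

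Genes responsive to carbohydrate were mixed, with 1 of 9 tested higher and 2 lower (median log2 -0.17), and 1 further gene of the list was not matched by name. Fgf21 fell (log2 -1.92, SE 0.522) and Gpi1 rose (0.57, SE 0.166), while Pklr (-0.96, adjusted p = 0.0766) and Pnpla3 (-0.17, adjusted p = 0.883) were not called. Fgf21 was near the limit of detection, at 0.167 to 3.29 CPM in Het and 0.0906 to 0.729 CPM in KO livers. Its genotypes overlapped in males. Pnpla3 was also low, at 0.0651 to 1.96 CPM in Het and 0.124 to 0.831 CPM in KO livers. Of 12 genes that assemble glycerolipids, 1 rose (Lpin3, log2 0.86) and 2 fell (Mogat1, -2.08, and Dgat2, the last step to triglyceride, -0.55), with a median of -0.11. Mogat1 was near the limit of detection, at 0.194 to 1.30 CPM in Het and 0.0290 to 0.429 CPM in KO livers.

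Of 18 genes of cholesterol synthesis and uptake, whose main driver is SREBP-2, 3 were called and each rose, among them Lss (log2 0.94) and Mvk (0.79), and the median was 0.31. In males the median was 0.83, and in females -0.19, but the interaction was called for 0 of the 18 genes. Of 14 fasting response genes 4 were called and each fell, among them Ppara (log2 -1.37) and Acadl (-0.47), and the median was 0.13. The 14 estimates ran from -1.37 to 3.06, 7 of them below 0. Among genes not called, Igfbp1 had means of 160 ± 283 CPM in Het and 1538 ± 1789 CPM in KO livers (SD, n = 6). Those of Pck1 were 2856 ± 1591 CPM in Het and 5472 ± 2096 CPM in KO livers. The part of feeding state in the lipogenic values was not tested. Of 15 clock genes 2 rose (Cry2, log2 1.27, and Nfil3, 1.24) and Hlf fell (-0.87). Other clock genes, not called, differed widely between livers. In Het_F_115, the lowest Het liver for Srebf1, Bmal1 read 27.9 CPM, against a Het median of 1.68 CPM and 3.40 to 23.9 CPM in KO livers. Dbp read 0.765 CPM in Het_F_115, against a Het median of 100.7 CPM. It read 12.1 to 18.8 CPM in KO females and 37.5 to 103.3 CPM in KO males. Since the circadian time of collection is not known, the part of the clock in the lipogenic values was not tested. Among 10 close paralogs of the lipogenic genes that were tested, 2 rose and 3 fell (median log2 -0.33), the falls being Elovl3, Mlx and Mid1ip1.

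**Figure D5:**
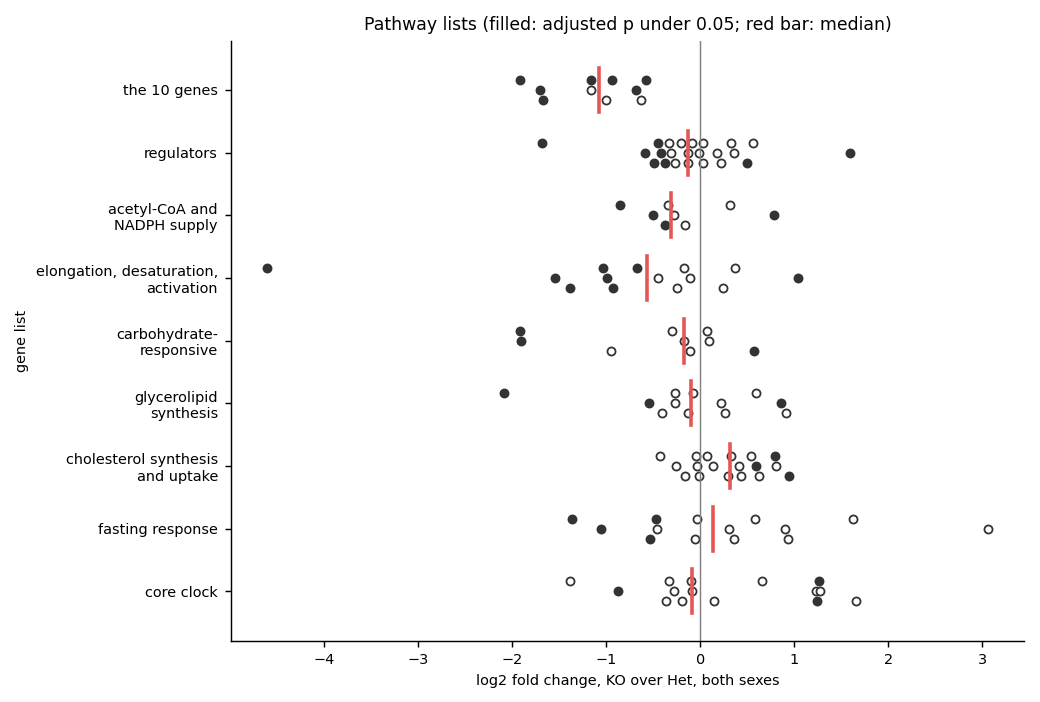
Log2 fold change of KO over Het over both sexes for each tested gene of the 10 lipogenic genes and of 8 other lists. Filled points have an adjusted p under 0.05 and red bars are medians. The 10 genes lie wholly left of 0 with a median of -1.08, and the cholesterol list has a median of 0.31.

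The genes whose pattern over the 12 livers was most like that of Fasn, Srebf1 and Scd1 were found by the root mean square (RMS) difference of centred log2 CPM. For Fasn these were Plac9, Armcx2, Sox7, Slc25a45 and Ecm2, with RMS differences of 0.290 to 0.313 against an SD of 0.742 for Fasn itself. For Srebf1 they were Gm39606, Gm32461, Gm12247, Nr3c2 and Apol7a (0.305 to 0.316, against an SD of 0.779). The nearest of Scd1 included Lgals1 (0.367) and its paralog Scd3 (0.477), against an SD of 1.26. None of the other lipogenic genes was among the 5 nearest of any of these 3.

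Markers of cell types were measured because fewer cells of a type and less RNA per cell cannot be told apart in bulk liver. The 7 hepatocyte markers summed to 66435 to 88470 CPM in Het and 83262 to 141814 CPM in KO livers, and of these Ttr fell (log2 -0.81) while Alb (0.57, adjusted p = 0.0620) and Cps1 (0.39, adjusted p = 0.108) were not called. Most of the sum was Alb, at 35119 to 58990 CPM in Het and 55069 to 108632 CPM in KO livers. Over the 7 markers the median log2 fold change was 0.04, with 3 estimates below 0. Adipocytes, the other main lipogenic cells, were near absent by their markers, which summed to 4.87 to 18.3 CPM in Het and 7.69 to 13.8 CPM in KO livers. Lep was at 0 counts in every liver, 4 of the 7 did not pass the filter, and of the rest Fabp4 rose (log2 0.71) while Cfd (-1.53, adjusted p = 0.244) and Adrb3 (-0.22, adjusted p = 0.726) were not called.

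Markers of nonparenchymal cells moved in part. Of 6 macrophage markers 3 rose (Vsig4, log2 0.87, Cd68, 0.82, and Cd5l, 0.79), their sum being 117 to 288 CPM in Het and 148 to 450.0 CPM in KO livers. Of 5 endothelial markers 2 fell (Kdr, -0.99, and Clec4g, -0.83), with Pecam1 at -0.49 (adjusted p = 0.0911), and the sum went from 146 to 274 CPM in Het to 111.9 to 190.0 CPM in KO livers. Of 5 stellate cell markers Lrat fell (-1.89), with Dcn (-0.44, adjusted p = 0.0608) and Des (-0.37, adjusted p = 0.231) not called, and sums of 101 to 188 and 69.0 to 146 CPM. Of the neutrophil markers, which summed to at most 3.24 CPM, S100a8 rose (1.17), and S100a9 (0.47, adjusted p = 0.314) and Cxcr2 (0.23, adjusted p = 0.639) were not called. The 4 cholangiocyte markers summed to at most 11.6 CPM and none was called by edgeR (Krt7 0.39, Epcam -0.21, Krt19 0.21). Of the pancreatic acinar markers Cpa1, Pnlip and Prss2 were at 0 counts in every liver, and Cela2a rose (2.07) to at most 1.58 CPM. The part of cell composition in the lipogenic values was not tested.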

How the data were processed

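Ribosomal RNA was removed from total RNA of 12 livers (3 per group, 4 groups, labelled as separate mice) before stranded sequencing, and the authors aligned reads with STAR 2.7.9a to GRCm39 and quantified them with Salmon 1.10.1. The deposited estimated counts per gene, of which 12.0% of values are not whole, were rounded and used for every main result. The authors' length-scaled and scaled estimated counts and the deposited TPM values, which keep no depth, served as alternatives and TPM for levels between genes.

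Genes with at least 5 reads, scaled to the median library, in at least 3 livers were kept (19350 of 57180). Counts were scaled by TMM and fitted in edgeR 4.0.16 (R 4.3.3) by robust quasi-likelihood with prior count 2 and a mean per group. Genotype effects were averaged over the sexes, taken within each sex, and compared by their interaction, with Benjamini-Hochberg adjustment over all genes and calls at 0.05. The fit was tested on simulated data. Coordinates are from GENCODE M39, and promoter sequences are from RefSeq. The members and lists were chosen with earlier results of these data known. Named genes are the members, Xpa, Ercc8, the 3 genes of smallest p in each list, and a short list of regulators and paralogs. Bmal1, Dbp, Igfbp1 and Pck1 were added, and partners in ratios picked, after values were seen. A few results that this rule would name are not reported here. Alternatives used other count tables, filters, scalings, DESeq2 1.42.0, limma 3.58.1 on log2 TPM, fits by sex, and leaving out each liver.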

Additional observations from a re-analysis of the deposited data

Results flagged for a closer look

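A gap test was applied to the 6 livers of each genotype for each of the 10 genes, that is to 20 sets of values, and compared the gap of the outermost liver with the whole range. Chance alone passes about 1 set in 20, and 2 sets passed. Srebf1 in Het_F_115 read 181 CPM, below the other 5 Het livers by 0.688 of the range. Thrsp in Het_M_119 read 701 CPM, above the other 5 by 0.695 of the range. Both lie in Het livers, and neither was left out of any main value.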

How the results depend on the processing

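The 12 livers limit these results more than depth does. Every member had at least 363 counts in each liver. No paired analysis was made. The Het mice were littermates of the KO mice, but the labels of the livers give genotype, sex and mouse number and not the litter. Livers were therefore not matched by litter, and the part of litter in these results was not tested.

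Over both sexes 7 members were called, and 5 to 7 on leaving out each liver. The other analyses called 4 to 8, with 4 when no filter on low counts was applied. Aacs, Me1, Mlxipl and Srebf1 stayed called in all 26 alternatives, Scd1 in 25, Acaca in 17 and Fasn in 13. In females 2 were called, with 1 to 6 on leaving out each liver (1 without Het_F_111, Het_F_126 or KO_F_108, and 6 without KO_F_123), 7 with DESeq2, 6 with limma on log2(TPM + 1) and 6 on log2(TPM + 0.1), and 1 when females were fitted alone. In males 2 were called, with 1 to 2 on leaving out each liver (1 without KO_M_118) and 2 to 3 otherwise (3 when males were fitted alone, with Srebf1, and 3 with DESeq2, with Scd1). Between the sexes 0 were called, with 0 to 1 on leaving out each liver (Mlxipl, without Het_F_126 or KO_F_123) and 1 with DESeq2. The interaction gave 0 throughout. The cause of these shifts was not tested. Shares of all genes called were taken for the main fit only, so counts from the alternatives cannot be set against them.

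No member changed direction between the genotypes over both sexes or in males. Estimates near 0 did change sign. The Elovl6 interaction became 0.0418 with limma on log2(TPM + 0.1). On leaving out each liver, interactions ran from -0.845 to 0.168 for Elovl6, -0.0277 to 0.732 for Acly, -0.0359 to 0.414 for Mlxipl and -0.293 to 1.27 for Scd1. Males against females ran from -0.178 to 0.314 for Aacs, -0.0814 to 0.345 for Fasn and -0.806 to 0.199 for Thrsp. Thrsp in females ran from -0.912 to 0.403. The ratio difference ran from -0.432 to 0.129 for Elovl6 to Elovl5 and from -0.107 to 0.823 for Thrsp to Mid1ip1. The livers whose omission changed one of these signs were Het_F_111, Het_F_115, Het_F_126, Het_M_119, Het_M_125, KO_F_108, KO_F_112 and KO_M_122.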
